A study of Mus musculus with 2 samples.

Results

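The genes described here, Hmgcs1, Idi1, Fdps, Fdft1, Sqle, Lss and Cyp51, encode 7 enzymes of cholesterol synthesis and were chosen by symbol among the 19070 genes of the deposited count tables, which held all 7. The choice used no measured value of a contrast, although it was made with earlier results of these data known. Their products act one after another on the route from acetyl-CoA to sterols. The brain makes its own cholesterol because lipoproteins of the blood do not cross the blood-brain barrier, and most of it lies in myelin. The transcription factor SREBP2 (gene Srebf2) switches the route on when membranes are short of sterol, and Insig1, a protein of the endoplasmic reticulum, holds it back when sterol is plentiful. Cells that have taken up lipid debris release surplus cholesterol through transporters such as Abca1 on to apolipoprotein E.

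The genes were measured by Visium HD, in which probes against each gene are hybridised to a tissue section and counted as unique molecular identifiers (UMIs) on a grid of barcoded squares, here in bins of 16 µm. The 2 groups held 1 coronal section each of perfusion-fixed, paraffin-embedded brain from male C57Bl6 mice. These were taken 3 days or 28 days after controlled cortical impact (CCI), a mechanical blow to the cortex of 1 hemisphere. The age of 3 months was that at impact, so that the 28 days animal was older when taken. Both animals carried the impact and no other treatment that the labels name, and no sham section was analysed here, so that the opposite side of each brain was the reference. With 1 section per time point there was no test between animals, time and animal cannot be told apart, and all intervals given are 95% intervals for counting error only.

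The sections held 120615873 UMIs in 121967 bins at 3 days and 82422389 UMIs in 105589 bins at 28 days, and bins with at least 100 UMIs were kept. Levels are given as counts per 1000000 UMIs (CPM), with UMIs summed over all bins of a compartment. The injured side lay below array column 130 at 3 days and below column 240 at 28 days, and it was captured over a width of 2.08 mm and 3.84 mm. White matter was the bins whose share of 10 myelin genes, taken over 5 by 5 bins, was at or above the 85th percentile found opposite to the impact, and grey matter the bins below the 70th percentile. On the opposite side the 9 listed neuron genes summed to 7392 CPM in grey against 2736 CPM in white matter at 3 days, and at 28 days to 7734 against 2111 CPM. The lesion zone was the patch of the injured side with a raised share of 6 phagocyte genes, and the mirror zone was the kept bins of the same area reflected across the dividing column. Of the zone bins 92.2% at 3 days and 86.9% at 28 days had a kept bin at their mirror position. All zone bins were used, so the zones were not matched bin by bin. A bin can hold parts of several cells, and in sums over bins fewer cells of a type and less RNA per cell cannot be told apart.

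**Figure D1:**
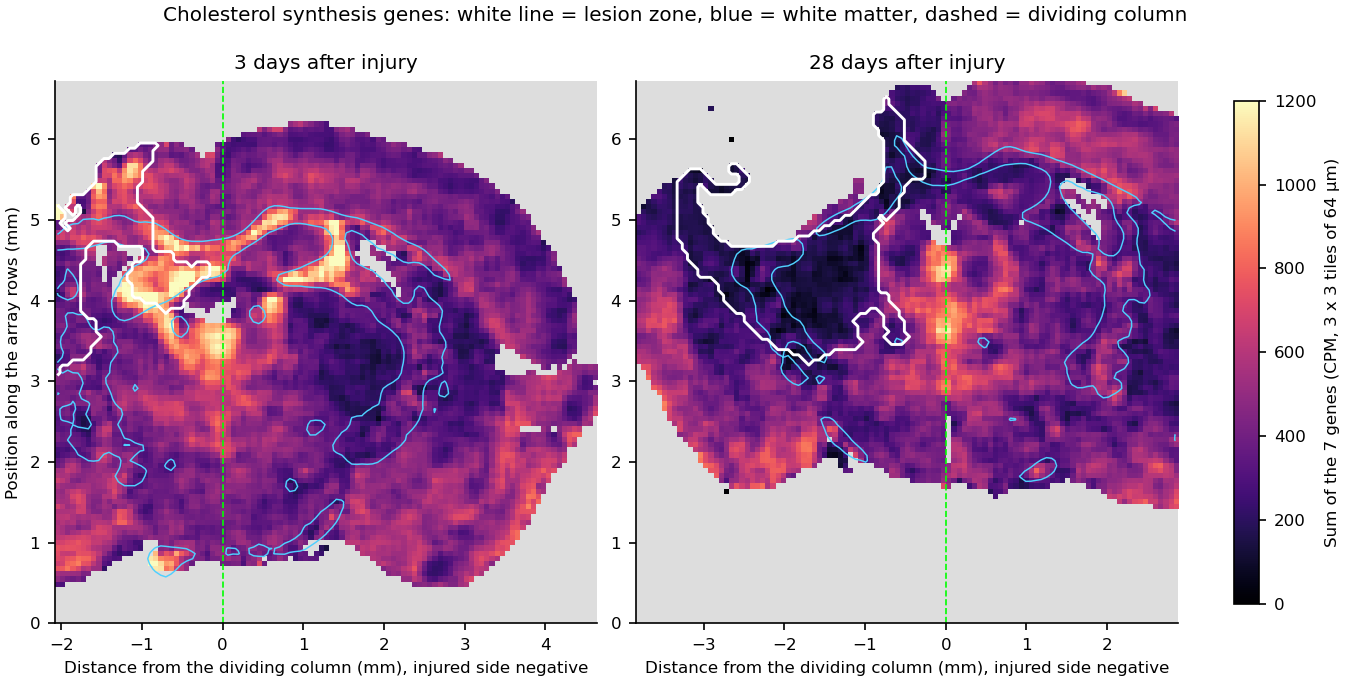
Sum of the 7 genes in CPM over 3 by 3 tiles of 64 µm, by position in each section (mm), with the lesion zone (white line), white matter (blue line) and dividing column (dashed). At 3 days bright tiles lay in the zone and in and below white matter near the dividing column, whereas at 28 days the zone, with 188 CPM, was dark.

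Each gene is introduced with its identifier and its position in GRCm38.p6, the assembly that mm10 names. Hmgcs1 (ENSMUSG00000093930, chr13:119690351-119708260) encodes the cytosolic synthase of HMG-CoA. Idi1 (ENSMUSG00000058258, chr13:8885606-8892396) encodes the isomerase that makes dimethylallyl diphosphate. Fdps (ENSMUSG00000059743, chr3:89093588-89101967) encodes the synthase of farnesyl diphosphate, from which protein prenylation also branches. Fdft1 (ENSMUSG00000021273, chr14:63145150-63181687) encodes squalene synthase, the step that commits the route to sterols. Sqle (ENSMUSG00000022351, chr15:59315092-59331193) encodes squalene epoxidase. Lss (ENSMUSG00000033105, chr10:76531565-76557139) encodes the cyclase that makes lanosterol, and Cyp51 (ENSMUSG00000001467, chr5:4080674-4104697) the enzyme that removes a methyl group from it.

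Promoters are shown because members of this route share control by SREBP2. The promoter table of RefSeq (GRCm38.p6) held 4 of the 7 genes, and the 250 bases before the start site that it gives are printed 5′ to 3′ on the strand of the gene. For Lss that start lies within the gene's annotated span. They lay at chr13:119690101-119690350 (plus strand) for Hmgcs1, chr13:8885356-8885605 (plus strand) for Idi1, chr10:76531355-76531604 (plus strand) for Lss and chr5:4104698-4104947 (minus strand) for Cyp51. Capitals mark CCAAT, the box bound by NF-Y, on either strand (ATTGG where it lies on the opposite strand), and TCACNCCAC, a form of the sterol regulatory element, on either strand.
Hmgcs1: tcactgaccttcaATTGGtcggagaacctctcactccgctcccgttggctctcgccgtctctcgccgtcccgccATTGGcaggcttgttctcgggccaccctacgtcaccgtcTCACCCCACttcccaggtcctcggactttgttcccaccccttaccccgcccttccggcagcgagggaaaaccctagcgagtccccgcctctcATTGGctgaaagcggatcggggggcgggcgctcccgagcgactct
Idi1: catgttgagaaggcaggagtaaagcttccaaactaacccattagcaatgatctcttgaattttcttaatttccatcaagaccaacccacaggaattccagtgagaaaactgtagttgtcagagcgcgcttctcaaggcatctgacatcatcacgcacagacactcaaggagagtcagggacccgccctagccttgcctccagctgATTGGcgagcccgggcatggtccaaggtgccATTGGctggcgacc
Lss: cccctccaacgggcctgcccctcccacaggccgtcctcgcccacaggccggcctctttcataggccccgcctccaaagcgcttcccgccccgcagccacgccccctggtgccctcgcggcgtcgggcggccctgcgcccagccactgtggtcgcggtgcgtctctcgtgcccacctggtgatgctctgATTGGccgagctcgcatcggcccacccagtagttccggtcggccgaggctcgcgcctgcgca
Cyp51: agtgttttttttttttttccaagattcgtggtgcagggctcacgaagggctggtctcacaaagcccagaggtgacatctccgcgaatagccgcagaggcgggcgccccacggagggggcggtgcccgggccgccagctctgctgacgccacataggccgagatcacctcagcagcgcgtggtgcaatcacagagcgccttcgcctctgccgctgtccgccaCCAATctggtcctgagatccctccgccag
CCAAT was found in 4 of these 4 promoters, 3 times in Hmgcs1, 2 times in Idi1 and 1 time each in Lss and Cyp51, and in 33.8% of the 32851 promoters of the table over the same length. TCACNCCAC was found in 1 of the 4, Hmgcs1, and in 1.05% of all promoters. The motifs do not overlap each other in these stretches. A match is a string of letters and not a measured binding site. Sqle, Fdps and Fdft1 were not in the table.

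In the lesion zone the genes were above the mirror zone at 3 days and below it at 28 days. Their sum was 613 against 465 CPM (log2 ratio 0.40, 0.32 to 0.47) at 3 days. At 28 days it was 188 against 365 CPM (-0.96, -1.05 to -0.86), which is 1.94-fold lower. The 28 days ratio minus the 3 days ratio was -1.36 (-1.47 to -1.24), and 7 of the 7 genes were higher in the zone at 3 days and lower at 28 days. A gene was called higher or lower if it had at least 200 UMIs over both zones and a ratio of at least 1.5-fold. At 28 days 6 of the 7 genes had enough UMIs and 6 were called lower, where 18.3% of all 10220 such genes were lower and 17.0% higher. At 3 days 6 had enough UMIs and 2 were called higher, where 21.0% of 9469 genes were higher and 17.5% lower, a count to be read against that background. The median log2 ratio of all tested genes was 0.049 at 3 days and -0.067 at 28 days. Depth differed too, since a zone bin held on average 597 against 909 at 3 days and 529 against 636 at 28 days. Counted per bin instead of per UMI, the ratio of the sum was -0.21 at 3 days, the other direction, and -1.22 at 28 days.

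In the mevalonate arm, Hmgcs1 had 199 against 158 CPM at 3 days (log2 ratio 0.33, 0.20 to 0.46) and 69.1 against 124 CPM at 28 days (-0.85, -1.01 to -0.69). Idi1 had 33.0 against 21.7 CPM at 3 days (log2 ratio 0.61, 0.27 to 0.95) and 8.53 against 22.1 CPM at 28 days (-1.38, -1.82 to -0.95). Fdps had 79.1 against 50.9 CPM at 3 days (log2 ratio 0.64, 0.42 to 0.85) and 18.4 against 36.1 CPM at 28 days (-0.97, -1.28 to -0.67). Idi1 and Fdps were the genes called higher at 3 days, and Idi1 had the lowest ratio of the 7 at 28 days. Of the later steps, Fdft1 had 96.5 against 77.1 CPM at 3 days (log2 ratio 0.32, 0.14 to 0.51) and 34.4 against 63.4 CPM at 28 days (-0.88, -1.11 to -0.66). Sqle had 108 against 85.6 CPM at 3 days (log2 ratio 0.34, 0.16 to 0.51) and 24.9 against 48.5 CPM at 28 days (-0.96, -1.22 to -0.70). Cyp51 had 77.2 against 55.1 CPM at 3 days (log2 ratio 0.49, 0.27 to 0.70) and 24.1 against 57.0 CPM at 28 days (-1.24, -1.5 to -0.99). For each of these 6 genes the counting intervals of both ratios excluded 0. Lss had 20.4 against 15.95 CPM at 3 days (log2 ratio 0.36, -0.061 to 0.78) and 8.53 against 13.3 CPM at 28 days (-0.64, -1.12 to -0.18), and with 197 and 166 UMIs over both zones it was below the minimum for a call.

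**Figure D2:**
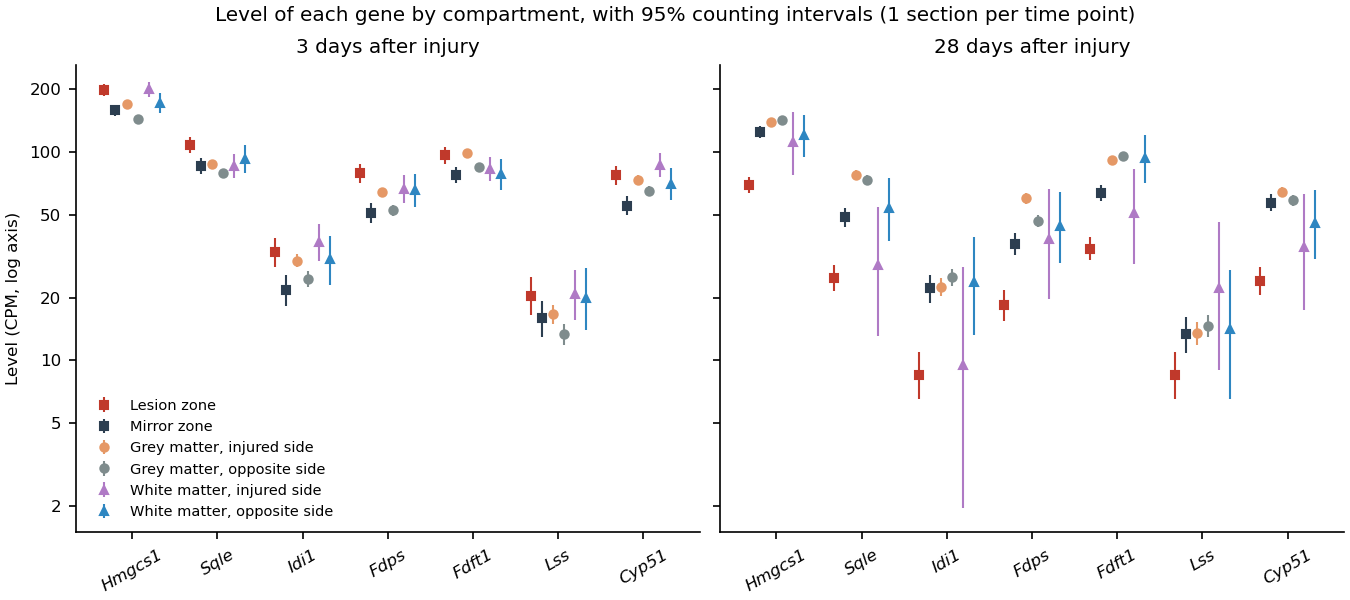
Level of each gene in CPM (log axis) in the lesion zone, the mirror zone and the grey and white matter of both sides outside them, with 95% counting intervals, 1 section per time point. For each gene the lesion zone (red squares) lies above the mirror zone (dark squares) at 3 days and below it at 28 days.

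The cell content of the zones differed. Neuron genes had 2170.3 against 7659.9 CPM in the lesion and mirror zone at 3 days and 2746 against 7079.6 CPM at 28 days, with 8 and 9 of 9 called lower (all genes, 17.5% and 18.3%). The 8 microglia and macrophage genes had 1890.3 against 528 CPM at 3 days and 4963 against 289 CPM at 28 days, with 7 and 8 of 8 called higher (all genes, 21.0% and 17.0%). The zone was placed by genes of phagocytes, so that this higher level was largely set by its construction and is a description. The 8 astrocyte genes had 6448 against 4524 CPM and 12904 against 4572 CPM, and the 9 oligodendrocyte genes that did not place white matter 2404 against 786 CPM and 1341 against 1080.1 CPM. White matter made up 4147 of the 7709 bins of the zone and 2033 of 7106 mirror bins at 3 days, and 3893 of 13971 and 3276 of 12146 at 28 days. The 7 genes were therefore also compared with the whole opposite side in bins of like content.

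At 3 days the zone was above the opposite side in each of 5 ranges of myelin share, with a log2 ratio of 0.30 (0.17 to 0.42) in the range poorest in myelin and 0.47 (0.14 to 0.79) in the richest. At 28 days it was below it in each, with -1.28 (-1.44 to -1.13) in the poorest and -0.74 (-1.76 to 0.12) in the richest, where the zone held 11 UMIs of the genes. In quartiles of neuron share, a split chosen after seeing the data, the zone at 28 days had -1.33 (-1.45 to -1.22) in the lowest and -0.92 (-1.39 to -0.49) in the highest quartile. At 3 days it had 0.28 (0.20 to 0.35) in the lowest, 0.52 (0.39 to 0.64) in the second and 1.02 (0.78 to 1.25) in the third quartile, and too few zone bins lay in the highest. Bins of like content were not matched for position. Against white matter of the mirror zone, white matter of the lesion zone had a log2 ratio of -0.037 (-0.19 to 0.12) at 3 days.

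Within the 28 days zone the genes were lower where microglia and macrophage genes took a larger share. From the lowest to the highest quartile of that share, a split also chosen after seeing the data, the sum was 256 CPM (234 to 279.7), 188 CPM (169 to 209), 164 CPM (146 to 182) and 136 CPM (118 to 155). Over the same quartiles the neuron genes went from 5027 to 1239 CPM while the oligodendrocyte genes were between 1188 (lowest) and 1570.4 CPM (second). Their part in the result was not tested. At 3 days the 4 quartiles had 526, 599, 718 and 651 CPM, the lowest of them in the quartile poorest in microglia and macrophage genes, while the oligodendrocyte genes went from 1825 to 3073 CPM. On the opposite side, the top 2% of bins by microglia and macrophage genes had 747 CPM (681 to 817) of the 7 genes at 3 days and 330.0 CPM (266 to 404) at 28 days. The top 2% by astrocyte genes had 658 CPM (604 to 714) and 642 CPM (569 to 720.5), those by oligodendrocyte genes 616 CPM (536 to 704) and 482 CPM (398 to 578), and those by neuron genes 433 CPM (409.8 to 456) and 423 CPM (396 to 452).

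**Figure D3:**
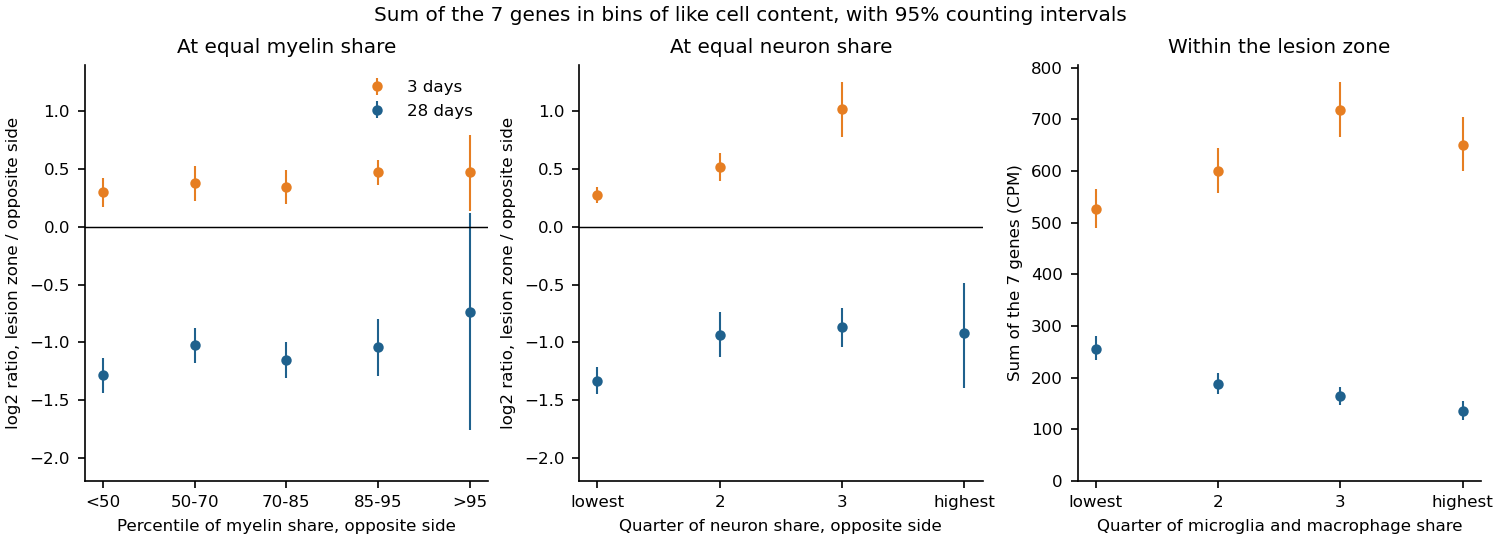
Left and middle, log2 ratio of the sum of the 7 genes between the lesion zone and the whole opposite side in bins of like myelin or neuron share, not matched for position. Right, the sum in CPM within the zone by quartile of microglia and macrophage share, with 95% counting intervals throughout. In the left and middle panels the 3 days points (orange) lie above 0 and the 28 days points (blue) below it, and the highest neuron quartile at 3 days held too few bins to draw.

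White and grey parts of the zone differed from each other at 3 days. In grey matter of the zone the sum was 551 against 439.6 CPM (log2 ratio 0.33, 0.21 to 0.44) in the mirror zone, and Fdps had the highest ratio of the 7 with 91.9 against 50.00 CPM (0.88, 0.58 to 1.17). The other log2 ratios there were 0.079 (Hmgcs1), 0.47 (Idi1), 0.37 (Fdft1), 0.15 (Sqle), 0.46 (Lss) and 0.42 (Cyp51). In white matter it was 719 against 737 CPM (-0.037, -0.19 to 0.12), while the whole white matter of the opposite side had 528 CPM. The single genes in white matter had -0.078 (Hmgcs1), 0.53 (Idi1), -0.14 (Fdps), -0.12 (Fdft1), -0.011 (Sqle), -0.23 (Lss) and 0.069 (Cyp51). At 28 days both parts were below the mirror zone, with 191 against 399.9 CPM (-1.07, -1.33 to -0.80) in white and 191 against 350.0 CPM (-0.88, -0.999 to -0.76) in grey matter. In that white matter Hmgcs1 had 74.6 against 123 CPM (-0.72, -1.17 to -0.27), Fdft1 41.9 against 70.2 CPM (-0.74, -1.35 to -0.15) and Cyp51 24.5 against 64.3 CPM (-1.39, -2.15 to -0.68). The others had log2 ratios of -2.59 (Idi1), -1.60 (Fdps), -1.27 (Sqle) and -1.03 (Lss), on fewer UMIs, down to 4 against 21 UMIs for Idi1, and for Lss the interval included 0. In grey matter they were -0.83 (Hmgcs1), -1.12 (Idi1), -0.73 (Fdps), -0.78 (Fdft1), -0.77 (Sqle), -0.48 (Lss) and -1.33 (Cyp51). Set against the oligodendrocyte genes, white matter of the 28 days zone held 5.60 UMIs of the 7 genes per 100 UMIs of that list, and white matter of the mirror zone 9.31. At 3 days these values were 16.9 and 16.4.

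White matter of the opposite side had a gradient of the genes at 3 days. The sum was 799 CPM (709 to 898) within 500 µm of the dividing column, 762 CPM (686 to 844) from 500 to 1000 µm, 517 CPM (482 to 554) from 1000 to 2000 µm and 397 CPM (365 to 431) beyond. Injured white matter outside the zone had 846, 753 and 491 CPM in the first 3 bands. At 28 days the opposite side had 367, 357, 389 and 419.9 CPM, with no higher level near the column. A comparison of white matter within 1000 µm with that beyond 2000 µm, chosen after seeing the data, gave 778 against 397 CPM (log2 ratio 0.97, 0.81 to 1.13) at 3 days and 361 against 419.9 CPM (-0.22, -0.54 to 0.092) at 28 days. A mirror line fitted to the 3 days section lay at column 154, so that part of the band nearest to column 130 may belong to the injured side. With that line in place of the column the near against far ratio was 0.87 at 3 days and -0.23 at 28 days. At 3 days 2 of the 7 genes had at least 200 UMIs and 2 were called higher, where 4.35% of 2966 genes were higher. Hmgcs1 had 266 against 126 CPM (1.08, 0.79 to 1.37) and Sqle, the other gene called, 138 against 60.9 CPM (1.18, 0.76 to 1.59). The 5 genes below the minimum had log2 ratios of 0.56 (Idi1), 1.12 (Fdps), 0.78 (Fdft1), 0.81 (Lss) and 0.79 (Cyp51). At 28 days the 7 had -0.16 (Hmgcs1), -1.79 (Idi1), -0.87 (Fdps), -0.14 (Fdft1), -0.39 (Sqle), -0.92 (Lss) and 0.58 (Cyp51). These rest on few UMIs, with 2 against 22 for Idi1, 3 against 18 for Lss and 9 against 52 for Fdps. Msmo1, which acts after Cyp51, had 177 against 87.6 CPM (1.01, 0.66 to 1.37) at 3 days. It is the only other enzyme of the route named for this comparison, and its value does not stand for the list.

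By straight-line distance from the lesion zone, the opposite white matter at 3 days had 997 CPM (822 to 1197) within 500 µm, 1014 CPM (894 to 1145) from 500 to 1000 µm and 861 CPM (794 to 931) from 1000 to 2000 µm. Farther away it had 375 CPM (349 to 403) up to 3000 µm and 383 CPM (339.6 to 429.8) beyond, so that the level changed between the third and the fourth band. At 28 days it had 289 CPM from 500 to 1000 µm, 378 CPM from 1000 to 2000 µm and 414 CPM up to 3000 µm. Microglia and macrophage genes were also higher near the column, with 1276 CPM within 500 µm and 613 CPM beyond 2000 µm at 3 days and 1369.7 and 731 CPM at 28 days. The oligodendrocyte genes had 3566 and 3729.9 CPM at these positions at 3 days, and the astrocyte genes 8053 and 6377 CPM. Their part in the result was not tested. Fibre tracts were not traced, so position and tract cannot be told apart.

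**Figure D4:**
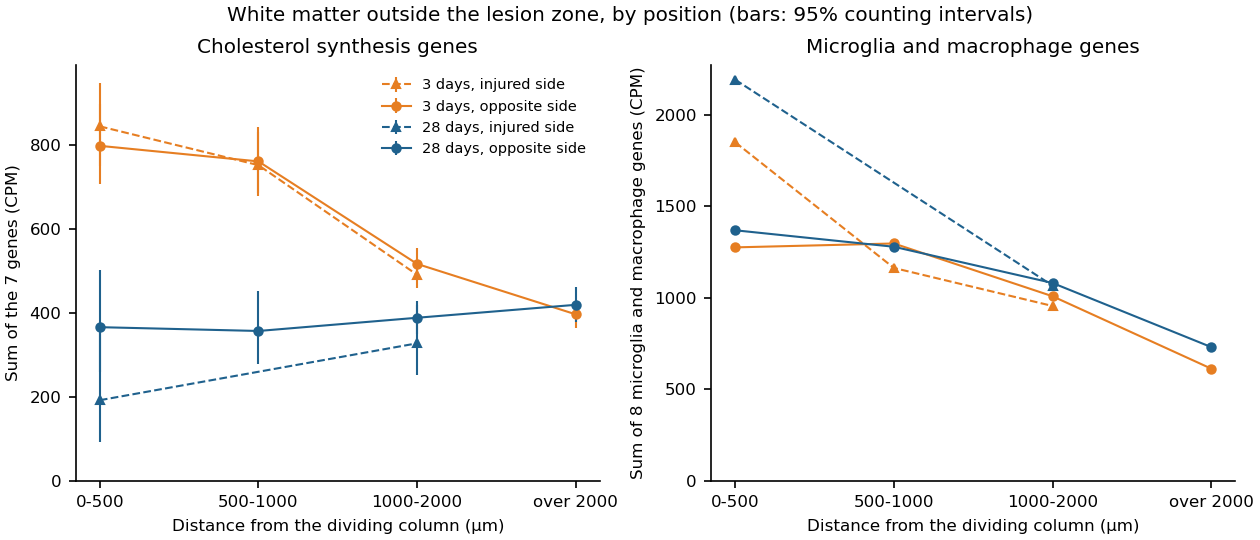
Sum of the 7 genes (left, with 95% counting intervals) and of 8 microglia and macrophage genes (right) in CPM in white matter outside the lesion zone, by distance from the dividing column (µm) and side. At 3 days the 7 genes go from 799 to 397 CPM on the opposite side, and at 28 days from 367 to 419.9 CPM. Bands with under 200 bins are not drawn, and a line across such a band joins its neighbours.

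In grey matter outside the zone the genes were slightly higher on the injured side at 3 days. The sum was 539 against 463 CPM (log2 ratio 0.22, 0.18 to 0.26), and each of the 7 genes was higher, from Sqle with 87.8 against 78.9 CPM (0.15, 0.060 to 0.25) to Lss with 16.6 against 13.3 CPM (0.32, 0.092 to 0.54). Hmgcs1 had 169 against 144 CPM (0.23, 0.16 to 0.30), Idi1 30.1 against 24.7 CPM (0.28, 0.12 to 0.45), Fdps 63.9 against 52.4 CPM (0.29, 0.17 to 0.40), Fdft1 98.6 against 84.4 CPM (0.22, 0.13 to 0.31) and Cyp51 73.7 against 64.7 CPM (0.19, 0.083 to 0.29). None passed 1.5-fold, where 5.84% of 12051 genes did in either direction. At 28 days the sum was 468 against 457 CPM (0.036, -0.0078 to 0.079). Fdps had 59.8 against 46.7 CPM (0.36, 0.23 to 0.49), and the log2 ratios of the other 6 were -0.036 (Hmgcs1), -0.16 (Idi1), -0.064 (Fdft1), 0.080 (Sqle), -0.11 (Lss) and 0.13 (Cyp51). None passed 1.5-fold, where 4.24% of 11642 genes did. Of the 8 microglia and macrophage genes 6 were called higher in injured grey matter at 3 days and 1 at 28 days, and the choroid plexus genes had 404 against 69.1 CPM and 332 against 69.4 CPM. Their part in the result was not tested. The 3 days difference depended on the dividing column, since with the column 20 bins lower the ratio was -0.0012.

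In white matter outside the zone the sum was 579 against 528 CPM (log2 ratio 0.13, 0.015 to 0.25) at 3 days. Of the 5 genes with enough UMIs none passed 1.5-fold, where 1.95% of 5729 genes did. Hmgcs1 had 199 against 171 CPM (0.22, 0.012 to 0.43), Cyp51 86.9 against 70.4 CPM (0.30, -0.015 to 0.63) and Sqle 85.8 against 92.6 CPM (-0.11, -0.41 to 0.19), and the log2 ratios of the others were 0.28 (Idi1), 0.025 (Fdps), 0.088 (Fdft1) and 0.058 (Lss). At 28 days the sum was 296 against 395 CPM (-0.42, -0.78 to -0.067), on 93 UMIs and 250 UMIs, and none of the 7 reached 200 UMIs, as 825 genes did, of which 6.06% passed 1.5-fold. The log2 ratios of single genes were -0.11 (Hmgcs1), -1.31 (Idi1), -0.21 (Fdps), -0.87 (Fdft1), -0.91 (Sqle), 0.65 (Lss) and -0.39 (Cyp51), on few UMIs each. Neither ratio held its direction under every setting. The 3 days value was -0.072 with the column 20 bins lower, and the 28 days value was 0.30 with white matter set at the 90th percentile.

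Grey matter regions were told apart by lists of regional genes. Each was compared with all opposite tiles of the region, mirror zone included, and not over mirror positions. The injured side spanned 2.08 mm and the opposite side 4.62 mm at 3 days, and 3.84 mm and 2.86 mm at 28 days. Side and position therefore cannot be told apart in the regional ratios of either section. In tiles led by hippocampus genes the sum at 3 days was 742 against 463 CPM (0.68, 0.60 to 0.76) on the injured side outside the zone and the opposite side, the highest ratio of the 5 regions. Thalamus tiles had 616 against 456 CPM (0.43, 0.37 to 0.50) and cortex tiles 499 against 432 CPM (0.21, 0.14 to 0.28). Striatum tiles had 383 against 389 CPM (-0.022, -0.14 to 0.091) and hypothalamus tiles 508 against 490.0 CPM (0.052, -0.0018 to 0.11), differences within the counting error. Inside the 3 days zone, cortex tiles had 756 CPM (684 to 833), above both sides outside it, hippocampus tiles 572 CPM (486 to 669) and thalamus tiles, with 41 UMIs, 327 CPM (235 to 444). At 28 days hippocampus tiles had 413 against 328 CPM (0.33, 0.21 to 0.45), thalamus tiles 553 against 509 CPM (0.12, 0.036 to 0.20), striatum tiles 334 against 300.1 CPM (0.16, 0.022 to 0.29) and hypothalamus tiles 514 against 473 CPM (0.12, 0.060 to 0.18), while cortex tiles were lower on the injured side with 399 against 487 CPM (-0.29, -0.34 to -0.23). Inside the 28 days zone the tiles of each of the 5 lists were lower than those on the opposite side, from 158 CPM (134 to 185) in hippocampus tiles to 223 CPM (197 to 251) in thalamus tiles. Each grey tile went to 1 list without a minimum score, so that tiles in the zone need not lie in the region named.

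With distance from the zone the grey matter of the sections took different courses. The bands were not recomputed with another dividing column, on which the 3 days grey matter ratio over all bands depended. At 3 days injured grey matter was above its mirror position in each band up to 2000 µm, with 505 against 387 CPM (log2 ratio 0.38, 0.29 to 0.48) within 250 µm, 534 against 419.4 CPM (0.35, 0.24 to 0.46) from 250 to 500 µm and 634 against 515 CPM (0.30, 0.22 to 0.39) from 500 to 1000 µm. From 1000 to 2000 µm it had 538 against 505 CPM (0.089, 0.022 to 0.16). At 28 days it was below its mirror position up to 500 µm, with 351 against 427 CPM (-0.29, -0.38 to -0.19) within 250 µm and 445 against 496 CPM (-0.16, -0.25 to -0.061) from 250 to 500 µm. Farther out it was above it, with 533 against 454 CPM (0.23, 0.14 to 0.32) from 500 to 1000 µm and 523 against 458 CPM (0.19, 0.11 to 0.27) from 1000 to 2000 µm. Within 250 µm the neuron genes of grey matter had 4565 against 8226 CPM and the microglia and macrophage genes 696 against 374 CPM at 3 days, and 5937 against 8373 and 566 against 184 CPM at 28 days. From 500 to 1000 µm the neuron genes of grey matter had 6574 against 7688 CPM and the microglia and macrophage genes 465 against 167 CPM at 3 days, and 4646 against 4383 and 214 against 250.4 CPM at 28 days. Their part in the result was not tested. White matter within 250 µm of the zone had 804 against 816 CPM (-0.020, -0.20 to 0.16) at 3 days and 199 against 347 CPM (-0.80, -1.36 to -0.28) at 28 days, the latter on 38 UMIs in injured white matter. White matter had no single direction at 3 days. From 250 to 500 µm injured white matter at 3 days had 401 against 756 CPM (-0.91, -1.25 to -0.58), the opposite direction to grey matter there. Farther out it was above its mirror position, with 416 against 317 CPM (0.39, 0.086 to 0.71) from 500 to 1000 µm, 413 against 336 CPM (0.30, -0.0084 to 0.60) from 1000 to 2000 µm and 668 against 482 CPM (0.47, 0.036 to 0.90) beyond.

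The genes were not confined to white matter. On the opposite side at 3 days the sum was 528 against 445 CPM (log2 ratio 0.25, 0.18 to 0.31) in white and grey matter. Lss, with 20.5 against 13.3 CPM (0.63, 0.28 to 0.96), was the 1 member called higher, where 20.8% of 12474 genes were higher. Hmgcs1 had 174 against 145 CPM (0.26, 0.15 to 0.38) and Fdft1 82.0 against 83.3 CPM (-0.023, -0.19 to 0.14), and the others had log2 ratios of 0.45 (Idi1), 0.24 (Fdps), 0.27 (Sqle) and 0.36 (Cyp51). At 28 days the order turned to 398 against 448 CPM (-0.17, -0.27 to -0.073), with Hmgcs1 at 125 against 152 CPM (-0.28, -0.45 to -0.10) and Sqle at 50.8 against 65.0 CPM (-0.36, -0.64 to -0.086) and the others at -0.17 (Idi1), -0.0039 (Fdps), -0.064 (Fdft1), -0.010 (Lss) and -0.055 (Cyp51). Then 0 members were called lower, where 24.8% of 11682 genes were lower. Grey matter of the opposite side thus had 445 and 448 CPM in the sections, a log2 ratio of 28 days over 3 days of 0.010 (-0.016 to 0.037), and its white matter a ratio of -0.41 (-0.52 to -0.29). In the lesion zone that ratio was -1.71 (-1.80 to -1.61). The ratio of opposite white matter differed by position. It was -1.11 (-1.42 to -0.81) within 1000 µm of the dividing column and 0.080 (-0.11 to 0.27) beyond 2000 µm. White matter was also cut at a different myelin share in each section, 1.36% at 3 days and 1.79% at 28 days. On the injured side outside the zone, white against grey matter gave 591 against 539 CPM (0.13, 0.058 to 0.21) for the sum at 3 days, with 0.29 (Hmgcs1), 0.28 (Idi1), 0.11 (Fdps), -0.23 (Fdft1), -0.024 (Sqle), 0.37 (Lss) and 0.26 (Cyp51). At 28 days it gave 295 against 452 CPM (-0.62, -0.92 to -0.32), with -0.33 (Hmgcs1), -1.23 (Idi1), -0.58 (Fdps), -0.80 (Fdft1), -1.38 (Sqle), 0.74 (Lss) and -0.73 (Cyp51). Bins of white matter held fewer UMIs, a mean of 319 against 1249 at 3 days, and with bins of at least 300 UMIs the 3 days ratio was -0.041.

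The other enzymes of the route were counted in the same way. All 15 listed had enough UMIs in the zones. At 3 days 13 had a positive log2 ratio and 2 were called higher (all genes, 21.0%), mevalonate kinase Mvk with 69.8 against 40.1 CPM (0.80, 0.56 to 1.04) and the sterol reductase Lbr with 30.4 against 18.0 CPM (0.76, 0.40 to 1.13). At 28 days 14 had a negative ratio and 5 were called lower (all genes, 18.3%). The median log2 ratio of these enzymes was 0.34 at 3 days and -0.44 at 28 days, where that of all genes was 0.049 and -0.067. Among the enzymes called lower these, Mvd, which makes isopentenyl diphosphate, had 13.1 against 24.7 CPM (-0.91, -1.28 to -0.55). Of the steps after lanosterol Msmo1 had 47.7 against 83.6 CPM (-0.81, -1.002 to -0.62) and Hsd17b7 20.04 against 30.9 CPM (-0.63, -0.93 to -0.32).

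Sterol sensing genes differed among themselves in direction. Calls among them stand beside 21.0% of all genes higher and 17.5% lower at 3 days, and 17.0% and 18.3% at 28 days. At 28 days Insig1 had 67.0 against 159.8 CPM (-1.25, -1.41 to -1.10) in the zones and the sterol carrier Stard4 12.5 against 39.1 CPM (-1.65, -2.003 to -1.31), both called lower. Srebf2 had 172 against 257 CPM (-0.58, -0.68 to -0.47), short of 1.5-fold. Srebf1, which drives fatty acid synthesis, was called higher at 3 days with 42.0 against 21.2 CPM (0.98, 0.66 to 1.31) and at 28 days with 54.3 against 23.0 CPM (1.24, 0.98 to 1.5). At 3 days Insig1 had 155 against 139 CPM (0.16, 0.019 to 0.31), Srebf2 322 against 336 CPM (-0.060, -0.16 to 0.036) and Insig2, which was called lower, 80.2 against 121 CPM (-0.60, -0.78 to -0.42).

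Of 8 tested genes of cholesterol release and turnover 4 were called higher and 2 lower in the 28 days zone, where 17.0% of all genes were higher and 18.3% lower. Apoe had 41460.2 against 3315 CPM (3.64, 3.63 to 3.66), Abca1 436 against 55.0 CPM (2.99, 2.84 to 3.14), Soat1, which esterifies surplus cholesterol, 55.9 against 20.1 CPM (1.48, 1.21 to 1.75) and Abcg1 90.5 against 45.6 CPM (0.99, 0.80 to 1.18). Abcg4 (-0.83) and the neuronal hydroxylase Cyp46a1 (-0.97) were called lower, as at 3 days (-1.19 and -0.98). At 3 days Abca1 (1.78) and Soat1 (0.87) were called higher. Of the 4 lysosomal genes 3 were called higher at both time points (all genes, 21.0% at 3 days and 17.0% at 28 days), Npc2 (1.24 and 2.43), the acid lipase Lipa (1.10 and 1.94) and Npc1 (0.83 and 0.79). The zone was placed by genes of phagocytes, so levels of genes that phagocytes express were partly set by its construction. Neuron, astrocyte and oligodendrocyte content also differed between the zones, as given above. The part of cell content in these ratios was not tested.

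Among genes of uptake and its control, Scarb1 was called higher at 3 days (0.74). At 28 days Lrp1 (1.12) and Mylip (1.88), which lowers uptake, were called higher. Of 8 further lipid genes driven by SREBP factors, Fasn (0.60), Scd1 (0.73), Scd2 (0.85) and Fads2 (0.63) were called higher at 3 days. At 28 days Fads2 (0.74) was called higher and Elovl6 (-0.80) lower. Over all 52 listed genes besides the 7, 13 of 47 tested were called higher and 3 lower at 3 days, and 11 of 48 higher and 10 lower at 28 days. Over all genes 21.0% were higher and 17.5% lower at 3 days and 17.0% and 18.3% at 28 days. Outside the zone none of them was called in grey matter, where 5.84% and 4.24% of all genes passed 1.5-fold. In injured white matter Acly, which makes acetyl-CoA, was called higher at 3 days (0.74) and lower at 28 days (-0.99), and Apoe higher at 28 days (0.74), where 1.95% and 6.06% of all genes passed 1.5-fold.

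**Figure D5:**
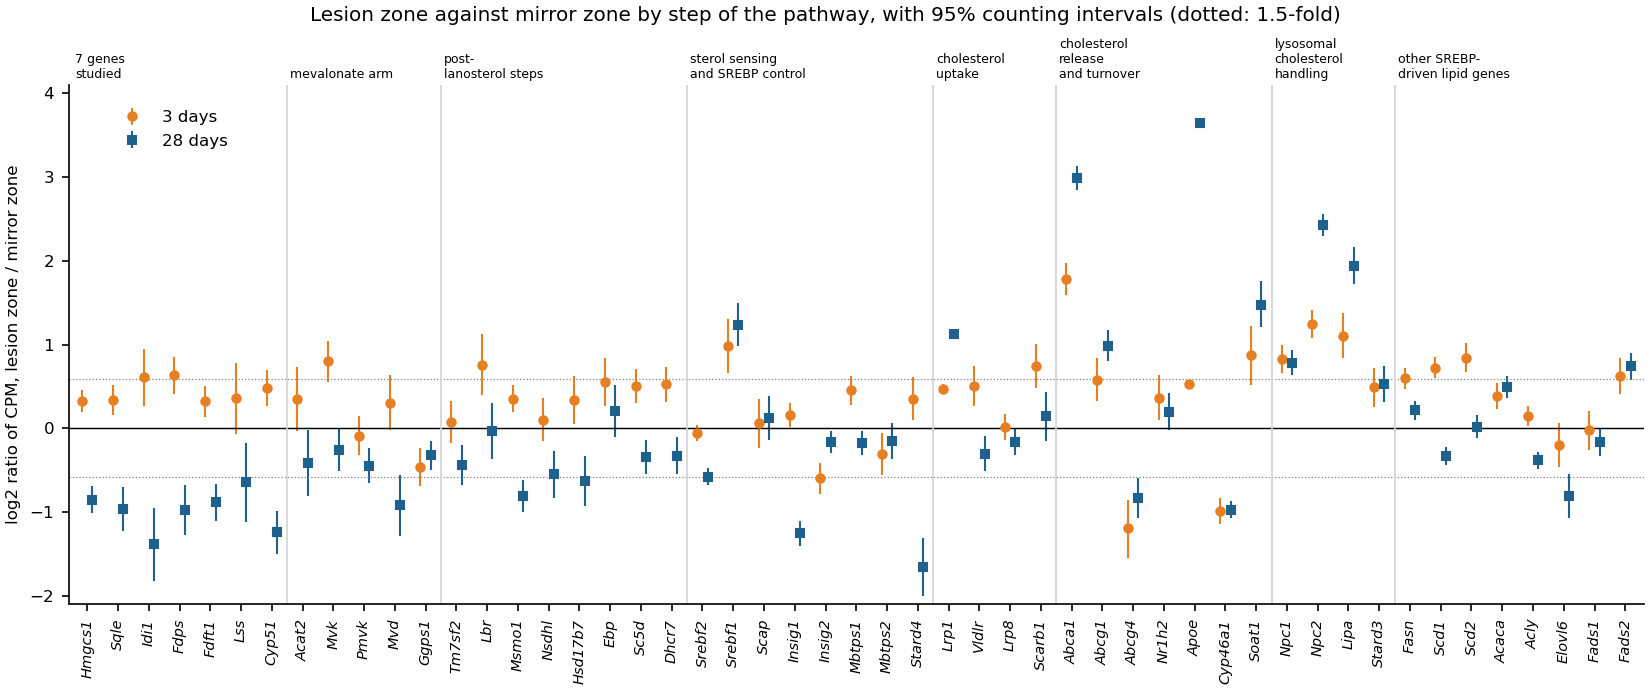
log2 ratio of CPM between lesion zone and mirror zone for the 7 genes (Lss included) and for the other reported genes of cholesterol handling with at least 200 UMIs at both time points, by list, at 3 days (orange) and 28 days (blue), with 95% counting intervals and dotted lines at 1.5-fold. At 28 days the 7 genes lie between -1.38 and -0.64, while Abca1 and Apoe are at 2.99 and 3.64. The zone was placed by genes of phagocytes and its cell content differed from that of the mirror zone.

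Across the sections the genes most like the 7 were largely of the same route. Over blocks of 16 by 16 bins (476 blocks at 3 days, 403 at 28 days) the log2(CPM + 1) of each of the 7 correlated with that of the sum of the others, from r = 0.30 and 0.32 (Lss) to 0.71 and 0.71 (Hmgcs1) at 3 and 28 days. Among 8118 other genes with at least 2000 UMIs in each section, ranked by the smaller of both correlations, the first 5 were Srebf2 (0.64 and 0.74), Msmo1 (0.73 and 0.57), Insig1 (0.53 and 0.67), Sc5d (0.56 and 0.45) and Nsdhl (0.46 and 0.44). The median gene had -0.01 and 0.09. Apoe had -0.09 and -0.66. Blocks of a section share a library and neighbours are not independent, so these values are a description only. Over blocks of 8 by 8 bins the correlations were lower, with 0.38 and 0.35 for Hmgcs1, 0.39 and 0.35 for Srebf2 and 0.33 and 0.35 for Msmo1. Sc5d was then at rank 6 and Nsdhl at rank 9, while Dhcr7, another enzyme of the route, was at rank 5. Stmn1, a gene of microtubules outside the route (rank 9 over the larger blocks), was at rank 4. Tubb5, a tubulin, was at rank 6 over the larger blocks. Dhcr7, Stmn1 and Tubb5 were named after their values were seen.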

How the data were processed

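Visium HD sections of mouse brain (1 per group, 3 days and 28 days after CCI) were used as deposited: raw UMI counts per gene and 16 µm bin, which the authors made with Space Ranger 4.0.1 (file header) on the build mm10 (submitters' processing notes). All bin columns belonged to these samples, and 84781 bin positions of the array grid were listed in both. Groups came from the labels. The 7 genes and all gene lists (8 of cholesterol handling, 52 genes besides the 7; 11 of cell types; 5 of grey regions) were chosen with earlier results of these data known.

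Bins with at least 100 UMIs were kept (1.93% and 2.15% left out). For the lesion zone, the share of 6 phagocyte genes per tile of 64 µm was averaged over 5 by 5 tiles, and tiles exceeding the 99th percentile of opposite tiles formed a patch of at least 25 tiles. Sides were compared over bins outside the zone whose mirror bin was also kept. Counts were summed, scaled to 1000000 UMIs, and given exact Poisson intervals for levels, exact conditional binomial intervals for ratios and delta-method intervals for differences of ratios, all at 95% and for counting error only. Called genes had at least 200 UMIs over both compartments and a fold of at least 1.5. Ratios were computed for all genes that reached this minimum. Grey tiles of 64 µm went to the regional list with the highest mean z score, and regions were compared without mirror matching.

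All 7 genes were named in the comparisons between compartments (regions, distances and shares used their sum), with those of the other pathway genes that were called in a side or zone comparison, Srebf2 and Insig1 whatever their value, and the 5 genes most like the 7. Some genes that this rule names are not reported here, though counts over the lists include them. Positions in white matter, quartiles of neuron and microglia share, the top 2% of bins and the near and far white matter with its settings were chosen after seeing the data. Python 3.11.15, numpy 2.4.6, scipy 1.17.1, pandas 2.3.3 and matplotlib 3.10.9 were used, and the ratio code was tested on simulated data. No doublet caller was run, as bins are not cells.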

Additional observations from a re-analysis of the deposited data

Results flagged for a closer look

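In 5 comparisons the summed ratio of the 7 genes pointed one way in the 3 days section and the other way in the 28 days section. With 1 section per time point these differences were not tested, and time and animal cannot be told apart. In the lesion zone against the mirror zone the log2 ratio was 0.40 at 3 days and -0.96 at 28 days, a difference of -1.36. In white matter of the injured against the opposite side it was 0.13 at 3 days and -0.42 at 28 days, a difference of -0.55. White against grey matter gave 0.25 at 3 days and -0.17 at 28 days, a difference of -0.42, on the opposite side, and 0.13 at 3 days and -0.62 at 28 days, a difference of -0.75, on the injured side. White matter near the dividing column against that far from it gave 0.97 at 3 days and -0.22 at 28 days, a difference of -1.19. Under other settings several of the 3 days directions turned. Per bin the 3 days value was -0.21 in the zone, -1.72 for white against grey matter on the opposite side and -1.46 on the injured side. With bins of at least 300 UMIs the latter pair was -0.041 and -0.12, and with white matter at the 80th percentile the injured side had -0.025. Between sides in white matter, the 3 days value was -0.072 with the dividing column 20 bins lower, and the 28 days value 0.30 with white matter at the 90th percentile.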

How the results depend on the processing

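Summed log2 ratios per bin were -0.21 and -1.22 in the zone (difference -1.02), 0.46 and -0.79 between sides in white matter (-1.25), 0.38 and -0.085 in grey matter (-0.47), -1.72 and -2.07 for white against grey matter opposite, -1.46 and -2.66 injured, and 1.23 near against far at 3 days. With the dividing column 20 bins lower they were -0.072 (white, 3 days), -0.0012 and -0.018 (grey, difference -0.017), and -1.18 (zone, 28 days, difference -1.64) and 1.14 (near against far, 3 days). With it 20 bins higher they were 0.38, 0.26 and 0.18 (-0.082), and 0.48 (zone, 3 days). A fitted mirror line gave 0.38 (white, 3 days), 0.27 and -0.021 (grey, -0.29), and 0.50 (zone, 3 days, -1.48). Without matching, grey matter at 3 days had 0.28 (-0.26) and the zone at 28 days -1.23 (-1.70). A zone at the 95th percentile gave -0.049 (white, 3 days, -0.12) and -0.75 (zone, 28 days, -1.17). White matter at the 90th percentile gave 0.30 between sides at 28 days (0.17), 0.44 against grey matter opposite and 0.40 and -0.14 injured, and at the 80th 0.084 and -0.025 at 3 days. Bins of at least 300 UMIs gave -0.041 and -0.12, and subtracting the median of all genes 0.24 injured at 3 days. Neuron quartiles gave 0.28, 0.52 and 1.02 at 3 days and -1.33 in the lowest at 28 days. White matter by distance had -0.020, -0.91, 0.39 and 0.30 at 3 days and -0.80 nearest at 28 days. Strata of myelin share from a shorter myelin list gave 0.19 and 0.33.

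Among single genes whose ratio had a counting interval that excluded 0, those that changed direction per bin were, in the zone at 3 days, Hmgcs1 (-0.28), Sqle (-0.27), Fdft1 (-0.28) and Cyp51 (-0.12). For white against grey matter opposite they were Hmgcs1 (-1.70), Sqle (-1.70), Idi1 (-1.52), Fdps (-1.72), Lss (-1.34) and Cyp51 (-1.61), and injured Hmgcs1 (-1.31) and Cyp51 (-1.34). Bins of at least 300 UMIs turned Hmgcs1 (-0.12) and Fdps (-0.23) opposite and Cyp51 (-0.0071) injured, and the 80th percentile Fdps (-0.0091). The lower column turned Hmgcs1 in white matter (-0.13) and in grey matter Sqle (-0.084), Idi1 (-0.0011) and Fdft1 (-0.083) at 3 days and Cyp51 (-0.053) at 28 days, which was -0.0056 without matching. Of the 52 other genes, per bin 4 were higher in white matter (all genes, 9.98%) and 1 in grey matter (7.92%) at 3 days, 2 higher and 10 lower in the zone at 3 days (8.49% and 48.2%), 0 higher and 2 lower in white matter at 28 days (0.727% and 24.5%) and 20 lower in the zone (31.7%). At least 50 UMIs per gene gave 3 higher and 4 lower in white matter at 28 days (5.7% and 7.49%), and bins of at least 300 UMIs 1 lower at 3 days (2.96%). Values of single genes moved outside their counting interval without such a change of direction 93 times and stayed within it 426 times. Summed values stayed within their counting interval, or counts within 1.5-fold, 167 times. They moved outside it without such a change of direction 58 times, and the direction turned 13 times. The causes were not tested, except that per bin values include depth.

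No paired analysis was possible because the labels give no replicate numbers and each group held 1 section, so leaving out a section would leave no comparison. Depth limits the white matter comparisons at 28 days most, with 93 UMIs of the 7 genes on the injured side.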

Other observations

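Lists of cell types that entered no comparison above also differed between the zones. Endothelial genes had 487 against 176 CPM at 3 days and 332 against 233 CPM at 28 days, fibroblast genes 401 against 71.9 CPM and 286 against 39.6 CPM, genes of oligodendrocyte precursors 208 against 56.2 CPM and 195 against 90.2 CPM, and ependymal genes 213 against 165 CPM and 224 against 55.5 CPM. In the top 2% of opposite bins by endothelial genes the 7 cholesterol synthesis genes had 477 CPM (429 to 529) and 500.5 CPM (431 to 578), and in those by fibroblast genes 368 CPM (330.3 to 408) and 377 CPM (325 to 436). Choroid plexus genes marked bins with 408 CPM (374 to 445) and 409 CPM (369 to 451). Cholesterol 25-hydroxylase, Ch25h, was below the minimum of 200 UMIs and had 21.1 against 0.929 CPM (4.50, 3.33 to 5.99) at 3 days and 11.9 against 0.259 CPM (5.52, 3.63 to 8.59) at 28 days, named after its value was seen. Its mirror zone levels rest on very few UMIs, so that the size of these ratios is uncertain, and the zone was placed by genes of phagocytes.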
